A study of Mus musculus with 121 samples.

Results

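Yy1, Yy2 and Zfp42 form a small family of zinc-finger genes, and all 3 were listed in each of the 3 gene count tables examined here. They were chosen by name as the gene of the degraded factor and its relatives, out of 55351 gene symbols in the auxin time series, 22493 in the table of untreated lines and 25208 in TT-seq. Expression was high enough to test for 2 of the 3 members in each RNA-seq table and for 1 in TT-seq. Yy1 was read in every library, Yy2 was read in every RNA-seq library at a low level, and Zfp42 was at or next to 0 throughout.

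YY1 is a transcription factor present in nearly all cell types that binds promoters and enhancers, activates or represses genes depending on its partners, and has been linked to contacts between distant regulatory elements. YY2 arose in placental mammals when a Yy1 transcript was copied back into the genome, within the X-linked gene Mbtps2, and it recognises similar DNA. ZFP42, also called REX1, is a further retroposed relative that serves as a marker of pluripotent stem cells. Degrading a protein acts after its messenger RNA is made, so the counts below report the messages of these genes and not YY1 itself.

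All libraries came from mouse G1E-ER4 cells, which are erythroid progenitors grown out of GATA1-deficient embryonic stem cells and given a GATA1 that responds to hormone. The YY1-AID subline has an auxin-inducible degron attached to YY1, and auxin then directs the protein to breakdown. Asynchronous cells of that subline were collected for RNA-seq after 0, 4, 24 and 48 h of auxin, with 3 libraries each. TT-seq, which captures RNA made during a 5 min pulse of 500 µM 4-thiouridine, compared 4 h of auxin with untreated cells of the same subline, with 3 libraries each. A separate RNA-seq table held untreated cells of YY1-AID subline3, of the YY1-AID subline and of the parental line, with 2 libraries each. Each tagged line is 1 subline, so the insertion and the line cannot be told apart. The labels number the replicates without naming separate cultures, so the p-values measure the spread between these libraries, part of which may be technical. A library held 25.1 to 26.2 M gene counts in the time series, 35.2 to 44.9 M among the untreated lines, and 30.2 to 53.5 M by TT-seq. Of 21 erythroid genes, 20 were listed in the time series and none of these was at 0 in all libraries, and their summed level ranged from 4180 to 5410 CPM (gene counts scaled to library size). It was 4950 to 5140 CPM at 0 h and 4180 to 4730 CPM at 24 h.

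The windows around the annotated starts of the 3 genes are shown because their sequence contexts differ among the 3 relatives. They come from RefSeq (GRCm38.p6), run from 250 bases before to 50 bases after the start, and are written 5′ to 3′ on the strand of the gene. Capitals mark the GC box GGGCGG, on either strand and with overlapping matches, at Yy1 (chr12:108793047-108793346, plus strand), the core TGACGT of the cAMP response element at Yy2 (chrX:157568936-157569235, minus strand), and the octamer ATTTGCAT at Zfp42 (chr8:43306960-43307259, minus strand).
Yy1: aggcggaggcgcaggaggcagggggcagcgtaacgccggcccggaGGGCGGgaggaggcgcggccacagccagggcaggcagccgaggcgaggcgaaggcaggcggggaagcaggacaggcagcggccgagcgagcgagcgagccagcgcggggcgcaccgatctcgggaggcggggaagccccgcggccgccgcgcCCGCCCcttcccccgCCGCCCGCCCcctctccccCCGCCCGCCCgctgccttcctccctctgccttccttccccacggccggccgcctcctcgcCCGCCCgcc
Yy2: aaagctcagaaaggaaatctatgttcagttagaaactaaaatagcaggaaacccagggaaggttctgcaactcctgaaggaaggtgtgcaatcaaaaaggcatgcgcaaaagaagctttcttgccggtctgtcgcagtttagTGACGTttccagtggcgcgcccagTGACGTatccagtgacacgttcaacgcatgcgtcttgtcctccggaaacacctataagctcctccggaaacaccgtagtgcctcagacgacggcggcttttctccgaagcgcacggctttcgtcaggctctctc
Zfp42: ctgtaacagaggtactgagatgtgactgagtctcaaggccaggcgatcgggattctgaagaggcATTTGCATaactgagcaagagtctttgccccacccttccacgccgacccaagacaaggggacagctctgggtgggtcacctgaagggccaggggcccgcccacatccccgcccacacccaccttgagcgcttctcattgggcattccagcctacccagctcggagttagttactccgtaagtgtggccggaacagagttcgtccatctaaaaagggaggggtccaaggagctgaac
The Yy1 window was 81.0% G and C, above 99.3% of all 32851 mouse promoter windows of that length, whose median was 52.7%. It held 7 matches to the GC box, a motif found in 35.7% of windows. The Yy2 window, with 51.3% G and C, was close to the median and held no GC box but 2 matches to TGACGT, which 7.51% of windows contain. At Zfp42 the window was 57.7% G and C and held 2 GC boxes, not capitalised above, and 1 octamer, the motif of POU factors, which 1.74% of windows contain. A YY1 motif written as AANATGG, searched on both strands and present in 16.1% of windows, was in none of the 3 windows. The shorter YY1 core CCAT, present in 83.1% of windows, had 0 matches at Yy1, 0 at Yy2 and 1 at Zfp42. These are matches of letters within the windows and say nothing of binding.

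Yy1 message did not pass the test at any time after its protein was targeted. The 3 libraries before auxin held 267, 277 and 239 CPM of Yy1. After 4 h of auxin the level was 295, 307 and 243 CPM, after 24 h it was 260, 236 and 239 CPM, and after 48 h it was 266, 289 and 253 CPM. The groups overlapped at every time, and replicate 3 was the lowest of its group at 0, 4 and 48 h. Means were 261 ± 19.7 CPM at 0 h, 282 ± 34 CPM at 4 h, 245 ± 13.1 CPM at 24 h and 269 ± 18.2 CPM at 48 h (SD, n = 3 each). In order of level 4 h came first, followed by 48 h, 0 h and 24 h, and each of these neighbours differed by less than the larger SD of the pair. In bulk libraries of this kind, fewer cells of a type and less RNA per cell cannot be told apart.

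**Figure D1:**
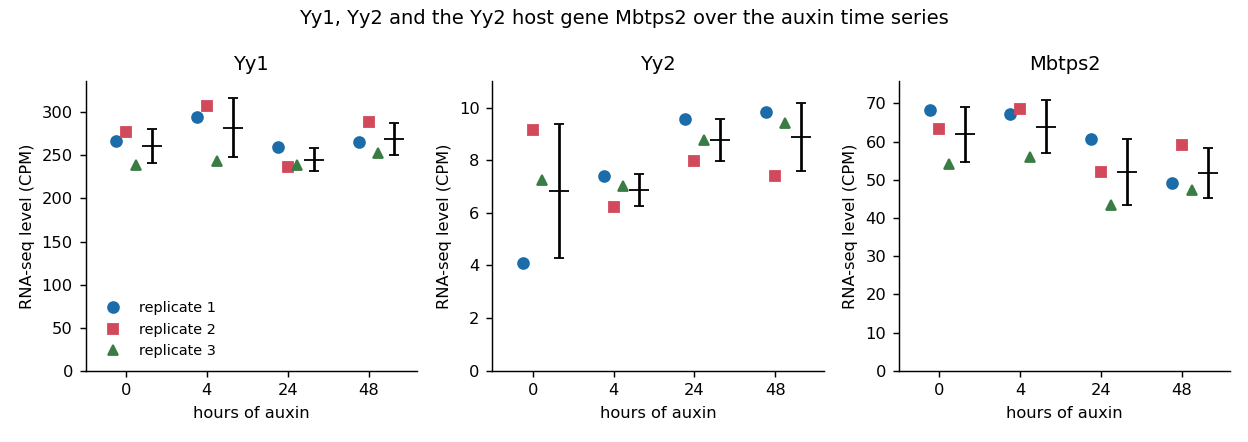
RNA-seq level in CPM of Yy1, Yy2 and Mbtps2, the gene that holds Yy2, after 0, 4, 24 and 48 h of auxin; symbols are libraries, the black bars are mean ± SD (n = 3). Yy1 stays between 236 and 307 CPM, Yy2 runs from 4.11 CPM in 1 library at 0 h to 9.82 CPM at 48 h, and Mbtps2 averages 61.9 and 63.9 CPM at 0 and 4 h and 52.1 and 51.8 CPM at 24 and 48 h.

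Relative to 0 h, the log2 fold change of Yy1 was 0.11 ± 0.09 (SE) at 4 h, with a 95% interval of −0.08 to 0.30 and an adjusted p of 0.516 by edgeR's quasi-likelihood test. At 24 h it was −0.09 ± 0.09 (−0.28 to 0.10, adjusted p = 0.440), and at 48 h 0.05 ± 0.09 (−0.14 to 0.24, adjusted p = 0.692). The outermost bounds of these intervals correspond to 0.825 times the starting level at 24 h and 1.23 times at 4 h, and larger changes lie outside all 3. Across all 15157 genes tested, 7.28% passed at 4 h, 43% at 24 h and 49.5% at 48 h, while neither Yy1 nor Yy2 passed at any of these times, by edgeR or by DESeq2. By unadjusted p, neither was under 0.05 in these comparisons with 0 h. At 24 h the log2 fold change of Yy1 against 4 h was −0.20 ± 0.09, with an edgeR adjusted p of 0.0924 and an unadjusted p under 0.05, in a comparison where 33.6% of genes passed. Without replicate 3 at 4 h that difference was −0.29 with an adjusted p of 0.0133. From 24 to 48 h the log2 difference was 0.14 ± 0.09 (adjusted p = 0.422, where 5.87% of genes passed).

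Newly made Yy1 RNA rose slightly with auxin when libraries were paired by number, and did not pass without the pairing. TT-seq gave 203, 203 and 212 CPM for Yy1 in the auxin libraries, replicates 1 to 3, against 173, 197 and 184 CPM in the untreated libraries. The groups did not overlap, and the auxin library was the higher one for all 3 replicate numbers. How many of all genes separate in this way in TT-seq was not counted. Means were 206 ± 5.2 CPM with auxin and 185 ± 12 CPM without (SD, n = 3 each), a log2 fold change of 0.16 ± 0.08 (95% interval −0.02 to 0.35, adjusted p = 0.276 by edgeR), in a comparison where 9.2% of 11218 genes passed. Same-numbered TT-seq libraries deviated in the same direction from the means of their groups, so the fit was repeated with the number as a block. The log2 fold change was then 0.159 ± 0.038 (0.085 to 0.234) with an adjusted p of 0.000176, and 47.9% of genes passed in that fit.

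The Drosophila spike-in, labelled RNA added in a fixed amount per amount of cell RNA, gives a scale that does not rest on the other mouse genes. On that scale Yy1 had 7.35, 22.6 and 15.6 counts per 1000 spike-in counts in the auxin libraries, against 6.25, 24.3 and 13.1 in the untreated ones. Auxin was higher for numbers 1 and 3 and lower for number 2, and the spread between numbers exceeded that between treatments. With spike-in library sizes and the replicate block the log2 fold change was 0.13 ± 0.06 (0.01 to 0.25) and did not pass (adjusted p = 0.0998, where 31.5% of genes passed). Without the block, spike-in sizes gave 0.06 ± 0.80. A higher level of new Yy1 RNA was thus called by the paired fit with sizes from mouse genes only, and was not called with spike-in sizes.

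**Figure D2:**
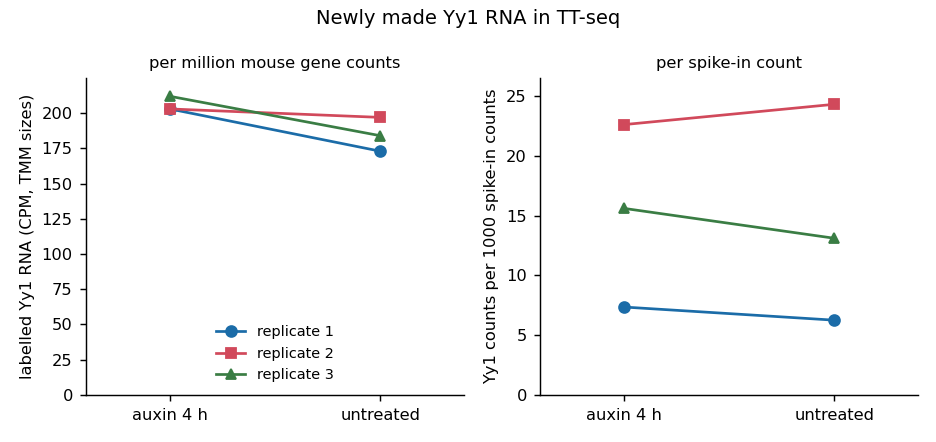
New Yy1 RNA in TT-seq by replicate number, as CPM (left) and per 1000 Drosophila spike-in counts (right); lines join the auxin and the untreated library of the same number. In CPM, all 3 lines lie higher with auxin, while per spike-in count the line of replicate 2 is lower with auxin (22.6 against 24.3).

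Yy2 message was low and noisy, and it did not pass the test in the time series. It had 101, 223 and 178 counts at 0 h, 185, 156 and 176 at 4 h, 254, 212 and 235 at 24 h, and 264, 195 and 253 at 48 h. These correspond to 4.11, 9.15 and 7.25 CPM at 0 h, 7.4, 6.22 and 7.02 CPM at 4 h, 9.55, 7.97 and 8.76 CPM at 24 h, and 9.82, 7.39 and 9.42 CPM at 48 h. The 0 h group was the most scattered, with replicate 1 the lowest library of the 12 and replicate 2 among the higher ones, and it overlapped every later group. The 24 h libraries all lay above the 4 h libraries, a separation whose share over all genes was not counted. Means were 6.84 ± 2.55 CPM at 0 h, 6.88 ± 0.602 CPM at 4 h, 8.76 ± 0.79 CPM at 24 h and 8.88 ± 1.3 CPM at 48 h (SD, n = 3 each). In this order, 0 h and 4 h, and 24 h and 48 h, differed by less than their spread.

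The log2 fold change of Yy2 against 0 h was 0.01 ± 0.22 (95% interval −0.48 to 0.49) at 4 h, 0.36 ± 0.22 (−0.12 to 0.84, edgeR adjusted p = 0.215) at 24 h and 0.38 ± 0.22 (−0.10 to 0.86, adjusted p = 0.179) at 48 h. The upper bounds of the later intervals are 1.79 and 1.81 times the level at 0 h. The result rested on single 0 h libraries. Without replicate 2 at 0 h the values were 0.615 at 24 h (adjusted p = 0.0441) and 0.628 at 48 h (adjusted p = 0.0342), and without replicate 1 they were 0.09 and 0.10. Set against 4 h instead, the 24 h value was 0.35 ± 0.22 (edgeR adjusted p = 0.253, where 33.6% of genes passed). These groups did not overlap, and the share of all genes that separate so was not counted. Yy2 at 48 h differed from 24 h by 0.02 ± 0.22. Other cell markers moved over the same hours: the summed level of 5 megakaryocyte genes was 38 to 52 CPM at 0 h, 40.7 to 50.6 at 4 h, 102 to 142 at 24 h and 209 to 249 at 48 h. Of their 4 tested members 2 rose at 24 h and at 48 h, when 21.5% and 24.9% of all genes rose, and Gp1bb was at 0 in all libraries. Of 20 tested erythroid genes 5 rose and 9 fell at 24 h (21.5% of all genes each). At 48 h 7 rose and 8 fell (24.9% and 24.6%). Of 4 myeloid genes 1 rose and 1 fell at 24 h, and 2 rose and 1 fell at 48 h. Of 2 mast cell genes 1 rose and 1 fell at both times. The part of these markers in the Yy2 values was not tested.

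The balance of the 2 messages was followed as Yy2 counts per 1000 Yy1 counts, which does not depend on library size. Its value was 15.4, 33.1 and 30.3 at 0 h, 25.1, 20.2 and 28.8 at 4 h, 36.7, 33.7 and 36.7 at 24 h, and 36.9, 25.6 and 37.2 at 48 h. All 24 h libraries were above all libraries at 0 h and at 4 h, whereas 48 h overlapped both. At 24 h the ratio averaged 35.7 ± 1.73, against 26.3 ± 9.51 at 0 h (SD, n = 3 each). An exact two-sided permutation test gave p = 0.1 for 24 h against 0 h and for 24 h against 4 h, the smallest p that 3 against 3 libraries allow, and 0.4 after adjustment over 8 comparisons. Without replicate 1 at 0 h the log2 ratio at 24 h was 0.172 in place of 0.518. How reads were shared between the related Yy1 and Yy2 transcripts is not stated.

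Mbtps2, which encodes the site-2 protease and holds Yy2 within its span on the same strand, lay lower in most later libraries, and its call depended on the processing. It had 60.8, 52.1 and 43.4 CPM at 24 h and 49.1, 59.2 and 47.2 CPM at 48 h, against 68.3, 63.4 and 54.1 CPM at 0 h. Groups overlapped, and 4 of these 6 later libraries lay below all of those at 0 h. The log2 fold changes were −0.25 ± 0.13 at 24 h (adjusted p = 0.145 by edgeR) and −0.26 ± 0.13 at 48 h (adjusted p = 0.121), neither of which passed. Both passed with no filter on low counts (adjusted p = 0.0444 and 0.0302) and with the replicate block (0.0299 and 0.0259). Over all genes the numbers did not pair these libraries, but replicate 3 had the lowest Mbtps2 level at 0, 4, 24 and 48 h. Within numbers 1 to 3 the log2 difference of Mbtps2 from 0 h was −0.166, −0.282 and −0.317 at 24 h. At 48 h it was −0.474, −0.1 and −0.197. The 24 h value also passed without replicate 1 at 24 h (−0.383, adjusted p = 0.0379), and the 48 h value without replicate 2 at 48 h (−0.372, adjusted p = 0.0463). In TT-seq it was 0.01 ± 0.13.

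Yy2 had 0 counts in all 6 TT-seq libraries, although Mbtps2 had between 1607 and 4921 counts there. Because Yy2 lies inside another gene, it was set beside other genes of that kind. Among genes with a mean of at least 100 RNA-seq counts in the time series, 42 of 48 that lie within another gene on the same strand had 0 counts in TT-seq (87.5%), by spans of the RefSeq annotation of GRCm38. The figure was 2 of 64 (3.12%) for genes within another on the opposite strand and 39 of 7242 (0.539%) for genes not within another. How the TT-seq counting treated nested genes is not stated, so no new transcription of Yy2 is read from this table in either condition.

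Zfp42, the stem cell marker of the family, was at or under the limit of counting. It had 0 counts in all 12 libraries of the time series, which together held 309 M gene counts. A count of 0 allows up to 3 counts, or 0.00972 CPM over the whole table and at most 0.12 CPM in a single library, for counting error only. The untreated lines had 1 count, in replicate 1 of YY1-AID subline3, and none in the other libraries. TT-seq had 1 count, in replicate 2 of the untreated cells. No fold is given, since every group was at or under that limit. Zfp42 message was thus not detectable at this depth at any time up to 48 h of auxin.

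Genes that mark the same pluripotent state were mostly at or near 0 as well. Of 25 such genes, 11 were at 0 in all 12 libraries of the time series, among them the core factors Pou5f1 and Sox2. Only 3 were expressed enough to test. Of all 55351 gene symbols there, 24752 had no counts in any library, a similar share. A count of 0 is thus common in the time series, for Zfp42 as for these genes. The summed level of the 25 genes was 39.5 to 41.4 CPM at 0 h, 29.1 to 38.3 at 4 h, 37.3 to 40.9 at 24 h and 36.2 to 40 at 48 h. Most of it was Dppa4, with 39.7, 38.5 and 40 CPM at 0 h. None of the 3 passed by edgeR at 4 or 24 h, when 7.28% and 43% of all genes did. At 48 h 1 of the 3 fell, when 24.6% of all genes did. It was Gdf3, a TGF-beta family ligand, lower by 2.91 ± 0.80 on the log2 scale (edgeR adjusted p = 0.00822). Gdf3 had 0, 0.0379 and 0.0745 CPM at 48 h against 0.448, 0.246 and 0.244 CPM at 0 h, levels of a few counts.

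In untreated cells, Yy1 varied more between replicate numbers than between lines. It had 76.7 and 102 CPM in YY1-AID subline3 (replicates 1 and 2), 48.3 and 109 CPM in the YY1-AID subline, and 76.4 and 114 CPM in the parental line. Replicate 1 was the lower one in every line, and the lines overlapped. Yy1 differed from the parental line by a log2 fold change of −0.27 ± 0.44 in the YY1-AID subline (95% interval −1.38 to 0.84) and −0.09 ± 0.44 in subline3 (−1.20 to 1.02), and subline3 differed from the subline by 0.18 ± 0.44. The edgeR adjusted p was 1, 0.993 and 1. Within replicate numbers the difference of the YY1-AID subline from parental was −0.66 for number 1 and −0.06 for number 2, and for subline3 it was 0.01 and −0.16. Subline3 minus subline was 0.67 for number 1 and −0.10 for number 2. Without replicate 1 of the YY1-AID subline its difference from parental was 0.20, and without replicate 2 it was −0.98. The lower bounds are 0.384 and 0.436 times the parental level, so a large difference in either direction is within these unpaired intervals. With the replicate number as a block the intervals were narrower. The difference from parental was then −0.34 ± 0.17 (−0.715 to 0.034, edgeR adjusted p = 0.389) in the YY1-AID subline. In subline3 it was −0.07 ± 0.17 (−0.443 to 0.303, adjusted p = 0.813).

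Yy2 did not pass the test between the lines, though every library of the tagged lines had more of it than the parental ones. It had 3.88 and 5.41 CPM in subline3 and 4.42 and 5.74 CPM in the YY1-AID subline, against 3.39 and 2.63 CPM in the parental line. Both tagged lines lay above parental without overlap, and overlapped each other. Both comparisons use the same 2 parental libraries, and the share of all genes that separate in this way was not counted. The log2 fold change against parental was 0.75 ± 0.32 for the YY1-AID subline (95% interval −0.04 to 1.54, edgeR adjusted p = 1) and 0.62 ± 0.32 for subline3 (−0.17 to 1.42, adjusted p = 0.993). Neither had an unadjusted p under 0.05 in this fit without pairing. With the replicate block the intervals lay above 0 and neither value passed. They were 0.73 ± 0.26 (0.139 to 1.32, edgeR adjusted p = 0.201, where 3.98% of genes passed) for the YY1-AID subline. For subline3 the value was 0.602 ± 0.262 (0.009 to 1.195, adjusted p = 0.185, where 6.24% passed). Within numbers 1 and 2 the difference from parental was 0.38 and 1.11 for the YY1-AID subline and 0.19 and 1.03 for subline3. Subline3 and the subline differed by −0.13 ± 0.31. Some marker sums also separated the lines. The 5 megakaryocyte genes summed to 30.4 to 32.5 CPM in subline3 and 31.6 to 35.7 in the subline, against 11.2 to 18.5 in parental. Among them Gp1bb and Vwf were at 0 throughout. The erythroid genes summed to 4460 to 5580 and 4560 to 5100 CPM, against 3590 to 3610, and 4 mast cell genes to 18.4 to 33.7 and 15.1 to 21.3 CPM, against 38 to 42.6. Other sums overlapped parental in at least 1 tagged line. Myeloid genes summed to 3.32 to 3.38 CPM in subline3 and 2.58 to 4.3 in the subline, against 2.9 to 3.07 in parental. Pluripotent genes summed to 58.1 to 66.2 and 48.4 to 59.8 CPM, against 49.4 to 59.6. The part of such markers in the Yy2 values of the lines was not tested. In each comparison with parental 0 of 10892 genes passed by edgeR (0%), with 557 and 534 at an unadjusted p under 0.05, and by DESeq2 52 rose and 124 fell in the subline and 84 rose and 46 fell in subline3, neither Yy1 nor Yy2 among them. Between subline3 and the subline 0.0826% passed.

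**Figure D3:**
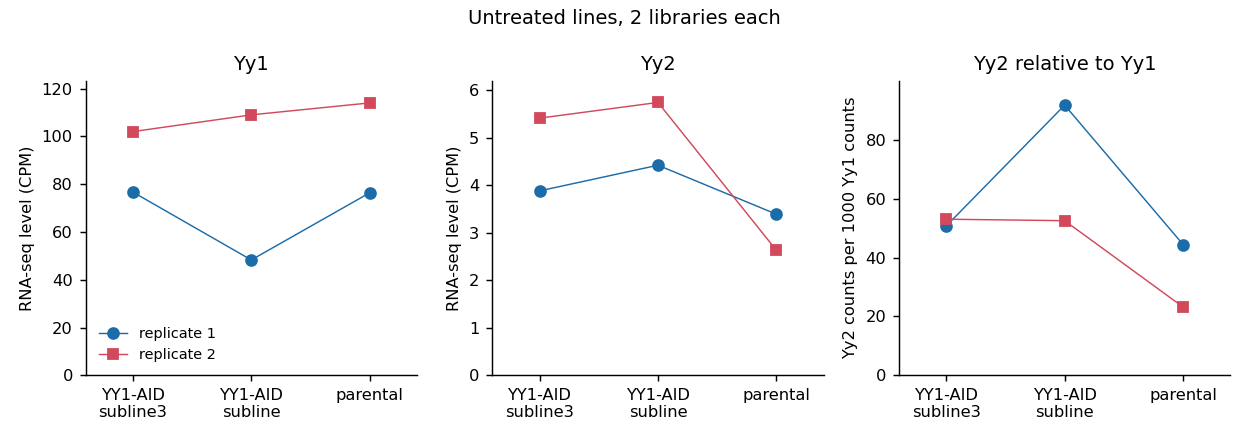
Untreated YY1-AID subline3, YY1-AID subline and parental cells, with 2 libraries each: Yy1 and Yy2 in CPM and Yy2 counts per 1000 Yy1 counts; lines join libraries of the same replicate number. Yy1 separates by replicate number, while Yy2 lies above both parental libraries (3.39 and 2.63 CPM) in all 4 tagged libraries, without passing the test.

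Yy2 counts per 1000 Yy1 counts were 50.7 and 53 in subline3 and 91.7 and 52.5 in the YY1-AID subline, against 44.4 and 23.2 in the parental line. The tagged lines were above parental without overlap for both replicates. The log2 ratio of subline3 to parental, 0.692, was 0.222 without parental replicate 2 and 1.162 without parental replicate 1. For the YY1-AID subline it was 1.112, and 0.642 and 1.582 without those libraries. The exact two-sided permutation test gave p = 0.333 for each of these comparisons, the smallest that 2 against 2 libraries allow. CPM values and ratios of this table and of the time series were normalised apart and are not compared in level.

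**Figure D4:**
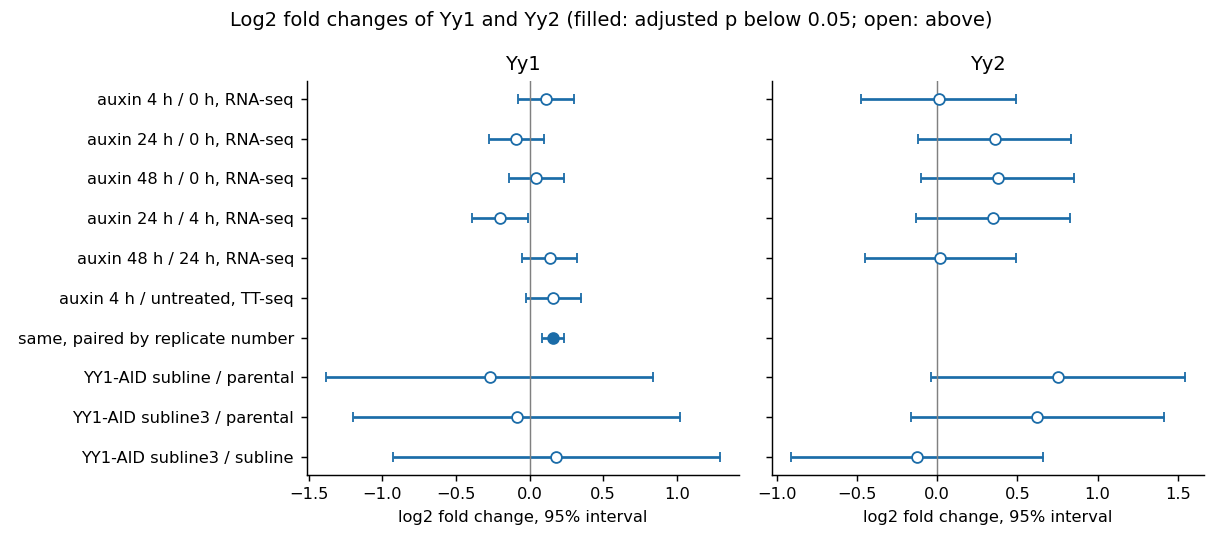
Log2 fold changes of Yy1 (left) and Yy2 (right) with 95% intervals in each comparison; filled symbols have an adjusted p below 0.05. The paired TT-seq fit of Yy1 (0.16) is the 1 filled symbol, Yy2 is not plotted for TT-seq because it had no counts there, and the intervals of the untreated lines are the widest.

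Across the 12 time-series libraries, the genes whose log2 CPM ran most nearly parallel to Yy1 were Btk, a Tec family kinase (Pearson r = 0.88), Arid3a, an AT-rich DNA-binding factor (0.869), Plekhm1 (0.851), Zfp526 (0.834) and Smap2 (0.828), out of 8402 genes compared. Those most nearly opposite were Ttc5 (−0.875), Cars2 (−0.867) and Tgds (−0.842). None of these 8 genes passed by edgeR at 48 h, when 49.5% of all genes did. For Yy2 the most nearly parallel of 8403 genes were Cklf (0.886), Tubgcp4 (0.885), Parpbp (0.872), Clcn4 (0.858) and Zfp433 (0.857), and the most nearly opposite were Ilvbl (−0.855), Abcg2 (−0.852) and Cst7 (−0.835). Of these, Zfp433 (0.93) and Parpbp (0.27) rose at 48 h and Cst7 (−0.42) fell, 3 of 8 against the same 49.5%. Yy1 and Yy2 themselves had r = −0.22. These values are descriptions over 12 libraries that share the time course and its library sizes, and they are the extremes of all genes compared. The genes were picked to follow or oppose Yy1 or Yy2 in these same libraries. Their calls at 48 h are partly set by that choice and are no test.

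Genes of several proteins that work with YY1 changed. Their list was chosen with earlier results of these data known, so its shares beside those of all genes are no test of an excess. Of 27 genes of YY1 partners and cofactors, 0 rose and 7 fell in TT-seq at 4 h of auxin, where 2.11% of all genes rose and 7.09% fell. RNA-seq called 2 higher and 3 lower at 4 h (3.14% and 4.14% of all genes), 7 higher and 9 lower at 24 h (21.5% each) and 6 higher and 11 lower at 48 h (24.9% and 24.6%). Between times, 3 were higher and 6 lower at 24 than at 4 h (15.9% and 17.7%), and 1 was higher and 1 lower at 48 than at 24 h (3.03% and 2.84%). Their median log2 fold change was −0.01 in TT-seq and −0.06, −0.05 and −0.02 in RNA-seq at the 3 times, against 0.02, 0.01, 0.03 and 0.03 over all genes. In TT-seq the pairing moved the count to 6 higher and 11 lower (22.7% and 25.3% of all genes), and spike-in sizes with the pairing to 1 higher and 11 lower (10.1% and 21.5%). Spike-in sizes without the pairing called 0 of 27, and 4 fell without replicate 3 of either group.

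Of the 27, Sfmbt2 had the lowest log2 fold change in TT-seq and at each time in RNA-seq. Sfmbt2, whose Drosophila relative joins the fly counterpart of YY1 in a Polycomb recruiting complex, had new RNA of 50.6, 46.6 and 55.5 CPM with auxin, against 175, 200 and 196 CPM in untreated cells, a log2 fold change of −1.90 ± 0.10 (edgeR adjusted p = 5.38e-05). Its message was 87, 98.9 and 80.5 CPM at 0 h, 57.2, 59 and 52.3 CPM at 4 h, 9.25, 8.91 and 10.7 CPM at 24 h, and 10.4, 9.1 and 8.16 CPM at 48 h. No auxin library overlapped an untreated one, and the level at 24 and 48 h was 0.108 and 0.104 times that at 0 h. L3mbtl2, a subunit of a variant Polycomb complex, fell by 0.79 ± 0.14 in TT-seq (adjusted p = 0.0112), a call lost without replicate 3 of auxin (0.0530) or of untreated cells (0.0514), and to 0.386 times its 0 h message by 48 h (adjusted p = 6.47e-09). Ogt, the O-GlcNAc transferase, fell by 1.09 ± 0.09 in TT-seq and by 0.605 ± 0.11, 0.47 ± 0.11 and 0.41 ± 0.11 in RNA-seq at 4, 24 and 48 h. The acetyltransferase gene Crebbp (−0.71 ± 0.08) and the deacetylase gene Hdac1 (−0.505 ± 0.086) also fell in TT-seq, and Hdac1 reached −0.89 ± 0.08 in RNA-seq at 48 h.

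Other partner genes rose. Ino80, the ATPase of the remodelling complex that includes YY1, had 151, 122 and 119 CPM at 4 h of auxin, against 89.2, 87.3 and 84.1 CPM at 0 h, a log2 fold change of 0.59 ± 0.09 (edgeR adjusted p = 0.00206). Hcfc1, a cofactor that joins YY1 in the BAP1 deubiquitinase complex, was higher by 0.26 ± 0.06 at 4 h (adjusted p = 0.0127), a call lost without replicate 2 or 3 at 0 h or replicate 1 or 2 at 4 h (adjusted p between 0.0582 and 0.0760). Kat2b, a histone acetyltransferase, rose by 0.81 ± 0.12 at 24 h and 1.30 ± 0.12 at 48 h. Rnf2, the ubiquitin ligase of Polycomb repressive complex 1, fell by 0.63 ± 0.08 and 0.65 ± 0.08 at those times. In the untreated lines 0 of the 27 passed in any of the 3 comparisons by edgeR without a block. With the replicate block 1 was higher in the YY1-AID subline than in parental, where 3.98% of genes passed, and 1 was lower in subline3 than in the subline, where 6.18% passed.

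**Figure D5:**
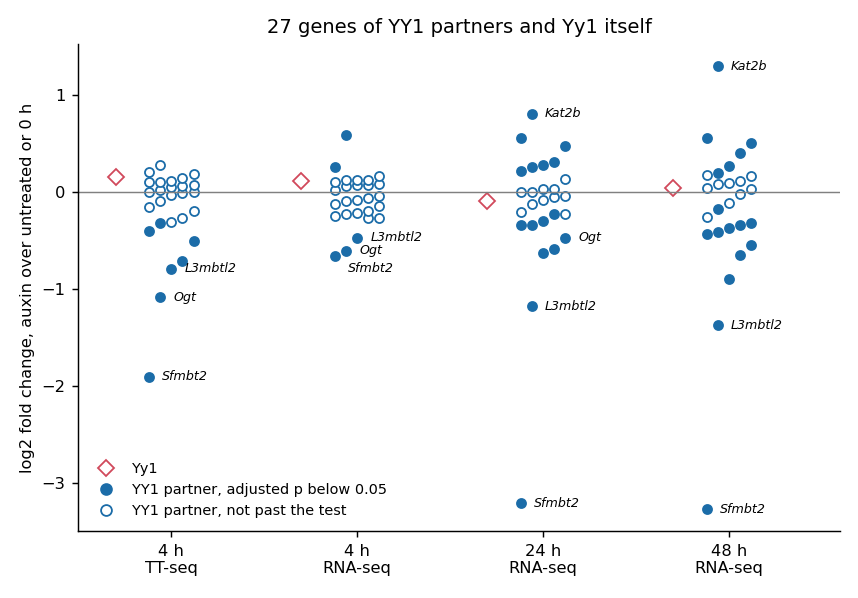
Log2 fold changes of 27 genes of YY1 partners (circles) and of Yy1 (diamonds), auxin over untreated cells in TT-seq and over 0 h in RNA-seq; filled circles have an adjusted p below 0.05. Sfmbt2 lies lowest in every column, from −0.66 in RNA-seq at 4 h to −3.27 at 48 h, while Yy1 stays near 0.

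Of 4 tested neighbours of Yy1, 1 passed in TT-seq (9.2% of all genes). In RNA-seq 0 passed at 4 h (7.28%), 2 at 24 h (43%) and 1 at 48 h (49.5%), so few genes that these shares tell little of the neighbours. Wdr25 fell by 0.72 ± 0.09 in TT-seq (edgeR adjusted p = 0.00249), with 38.8, 43.2 and 44.9 CPM with auxin against 65.5, 69.1 and 74.3 CPM in untreated cells. In RNA-seq at 24 h Wdr25 (−0.96 ± 0.30, a call lost without replicate 1 at 0 h or at 24 h, adjusted p = 0.0588 and 0.0728) and Wars1, a tryptophanyl-tRNA synthetase gene (−0.45 ± 0.08), fell, and at 48 h Wars1 (−0.49 ± 0.08). Of the neighbours of Yy2, Mbtps2 is described above and Sms did not pass at any time in RNA-seq. Of the 2 tested neighbours of Zfp42, Frg1 rose by 0.19 ± 0.07 at 24 h and 0.23 ± 0.07 at 48 h, when 21.5% and 24.9% of all genes rose. Those calls were lost at 24 h without any one replicate at 0 h or replicate 3 at 24 h, and at 48 h without replicate 2 at 0 h (adjusted p between 0.0563 and 0.165). The 24 h call was also lost with no filter (0.13) and with only the 2 groups (0.0534).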

How the data were processed

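Both RNA-seq tables list, by symbol, whole-number counts made by the authors. Per the submitters' processing notes, this assay used Salmon 0.13.1, with DESeq2 and mm9 also named. The deposited TT-seq counts come as 1 table for mouse and another for the Drosophila spike-in, of which 500 ng went into 100 µg of RNA from the cells. Its tools were Trim Galore 0.6.10, STAR and SAMtools, and the builds mm9 and dm6 are named, per the submitters' processing notes. No source used here gives the transcript set, the strand setting or how introns were treated. Lines of the TT-seq table that name no gene were left out, mainly reads without a feature (17.2% to 22.2% of a library).

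Each table was fitted with edgeR 4.0.16 in R 4.3.3 (filterByExpr by group, TMM factors, quasi-likelihood F-tests) with all its groups and no replicate term. Benjamini-Hochberg adjustment ran over every tested gene of a table, at a threshold of 0.05. The fit across genes was tested on simulated data. CPM use TMM-scaled library sizes, and log2 CPM has a prior count of 2. Values after ± are standard errors unless named as SD. DESeq2 1.42.0 and the other alternatives are described in the closing section. Pairing by replicate number was checked from deviations of libraries from their group means. Same-numbered TT-seq libraries correlated at 0.402 to 0.657, so the numbers pair them, from the data and not from the labels. Other numbers correlated at most at −0.092. Deviations within a group sum to 0, so these lower values partly follow from the same-numbered ones and add little.

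The members, gene lists and tests were chosen with earlier results of these data known. From each list up to 5 members with the smallest p per comparison may be named, plus Mbtps2. For likeness, the 5 highest and 3 lowest correlations were taken among tested genes whose log2 CPM averaged at least 3, leaving out predicted and clone-named genes. Peak, loop, boundary and domain lists (25) are in mm9 coordinates and were not used here.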

Additional observations from a re-analysis of the deposited data

How the results depend on the processing

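Alternatives were DESeq2's size factors, DESeq2's test, no filter on low counts, only the 2 groups compared, each replicate left out, a replicate block and, for TT-seq, spike-in sizes and sizes without Rn45s, the ribosomal RNA gene. Blocked fits with Rn45s left out, blocked fits without 1 pair and the left-out libraries of the ratio were added after seeing the data. With the replicate block, Yy1 in TT-seq passed at 0.159, at 0.152 without Rn45s and at 0.11, 0.221 and 0.147 without pair 1, 2 or 3. Over all genes the time-series numbers paired the libraries weakly at most (correlations −0.069 to 0.103). The block there gave a call for Yy1 at 24 against 4 h (−0.195, adjusted p = 0.0299). It also gave calls for Mbtps2 at 24 h, 48 h and 24 against 4 h (adjusted p = 0.0299, 0.0259 and 0.0168), as no filter did (0.0444, 0.0302 and 0.0222). In the untreated lines (correlations 0.628 to 0.738, 2 per group) the block called 176 genes higher and 258 lower for the YY1-AID subline, 457 and 223 for subline3 and 483 and 190 between them, with no member among them (Yy2 against parental 0.73 in the subline, adjusted p = 0.201, and 0.602 in subline3, adjusted p = 0.185). Yy2 at 4 h was −0.005 with DESeq2's size factors and −0.006 with its test. Leaving out 1 replicate gave ranges, for Yy1, of 0.029 to 0.196 (4 h), −0.154 to −0.054 (24 h), 0.08 to 0.178 (48 against 24 h), −0.293 to −0.126 (24 against 4 h), −0.025 to 0.087 (48 h), −0.977 to 0.203 (YY1-AID subline against parental), −0.344 to 0.227 (subline3 against parental) and −0.289 to 0.89 (subline3 against the subline). For Yy2 they were −0.27 to 0.258 (4 h), 0.086 to 0.615 (24 h), 0.1 to 0.628 (48 h), −0.067 to 0.132 (48 against 24 h), 0.368 to 0.859 (subline3 against parental) and −0.383 to 0.122 (subline3 against the subline). For Mbtps2 they were −0.056 to 0.122 (4 h), −0.129 to 0.112 (48 against 24 h), −0.102 to 0.124 (TT-seq), −0.987 to 1.32, −0.085 to 1.643 and −0.324 to 1.523 (the lines, in the order above). For the log2 ratio of Yy2 to Yy1 they were −0.373 to 0.178 (4 h), 0.172 to 0.722 (24 h), 0.049 to 0.599 (48 h), 0.642 to 1.582 and 0.222 to 1.162 (subline and subline3 against parental), −0.823 to −0.018 (subline3 against the subline) and −0.216 to 0.055 (48 against 24 h). Mbtps2 also turned sign at 0.004 (48 against 24 h, only the 2 groups) and in TT-seq at −0.057 and −0.023 (spike-in sizes, without and with the block) and −0.012 (blocked, without pair 1). Against 237 genes called higher and 795 lower in TT-seq, the block called 2541 and 2833, spike-in sizes 1 and 0, and both together 1128 and 2411, the block without Rn45s 2404 and 2939, and 1 library left out 54 to 172 and 375 to 701. DESeq2's test called 641 higher and 1029 lower at 4 h, against 476 and 627, and 767 and 654 at 48 against 24 h, against 459 and 430. Leaving out 1 library gave 206 to 248 and 397 to 483 at 4 h, and 213 to 352 and 164 to 375 at 48 against 24 h, where the 2 groups alone gave 316 and 161. In the untreated lines DESeq2's test called 52 and 124, 84 and 46, and 153 and 36, where edgeR called 0, 0 and 9, and with no filter 7 and 27, 1 and 0, and 28 and 2; without 1 library, at most 1 was called in place of 9. The causes were not tested. Depth sets the limit for Zfp42, and the untreated lines rest on 2 libraries each.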
